A study of Mus musculus with 24 samples.

Results

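The proteasome is the protease complex that degrades ubiquitin-tagged proteins in the cytosol and nucleus. Its transcripts were followed in the colon of SCID mice with colitis caused by transferred T cells, and in mice of the same model treated with a MEK inhibitor or an antibody against TNFa. The genes were taken by symbol: every gene whose name begins with Psma, Psmb, Psmc, Psmd, Psme, Psmf or Psmg followed by a digit. This gave 54 of the 43280 symbols counted, and 50 of the 54 had enough reads to be tested. The 5 immune members, Psmb8, Psmb9, Psmb10, Psme1 and Psme2, were set against the rest, and the rule itself uses symbols and no measured value.

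All animals were female C.B-17/Icr-scid/scid mice, which have no mature T or B cells of their own, bought at 7 weeks of age. Each of 6 groups had 4 libraries. In 5 groups the mice received CD4+ T cells from female BALB/c spleens, activated with concanavalin A and IL-2 for 3 days, and the distal colon was taken on day 28. The Vehicle group received 0.5% methylcellulose. The MEKi 0.3 and MEKi 1 groups received oral enteric microparticles of an inhibitor of MEK, the kinase that activates ERK, at 0.3 or 1 mg/kg each day from day 17 to day 27. The Anti-TNFa group received an antibody against the cytokine TNFa, and the Isotype group a control antibody, at 0.1 mg per mouse every 4 days from day 17. The Normal group received no cells and no treatment. No group analysed here received empty microparticles, and the labels do not give the day on which Normal colons were taken. They also do not say that each library came from its own mouse, so p-values measure the spread between libraries.

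The core of the proteasome, the 20S particle, stacks outer rings of alpha subunits, which gate the entry, on inner rings of beta subunits. Of the beta subunits, Psmb5, Psmb6 and Psmb7 cut the substrate. Interferon-gamma is known to induce Psmb8, Psmb9 and Psmb10, which take the places of Psmb5, Psmb6 and Psmb7 in newly built cores, the immunoproteasome, and favour peptides that bind MHC class I. The 19S cap recognises ubiquitin chains and unfolds substrates with its ring of ATPases. PA28, made of Psme1 and Psme2, is an interferon-inducible activator that opens the core without ubiquitin. Blood and lymphoid cells carry immunoproteasomes at rest, and other tissues build them during inflammation. In RNA of colon tissue, fewer cells of a type and less RNA per cell cannot be told apart.

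Library totals were 3175698 to 5840995 counts in the MEK inhibitor groups, 6139216 to 10587555 in the Isotype and Anti-TNFa groups, 4102817 to 5271844 in Vehicle and 3052940 to 5358259 in Normal. A table of the whole series gives 16 of its 24 columns another sample's name than the file with the same counts. By the samples' own files, which were used, 7 T cell genes summed to 476 to 795 counts in Vehicle and 35 to 68 in Normal; by the table's names they summed to 57 to 576 in Vehicle and 35 to 567 in Normal. For Isotype replicates 3 and 4 and Anti-TNFa replicates 1 and 2 these counts do not settle the label. Nor do they separate Vehicle from the MEK inhibitor groups, whose own files gave 469 to 576 in MEKi 0.3 and 149 to 516 in MEKi 1. Colon markers were present throughout, and 9 epithelium genes, among them Cdx2 and Muc2, summed to between 11179 and 18955 CPM (counts scaled to a library total of 1000000) in the 24 libraries. Pancreas transcripts, from a list of 12 genes, exceeded 1000 CPM in Vehicle replicate 4, with 7962 CPM, and in Isotype replicate 1, with 5877 CPM. Levels below are CPM of the library total, and fold changes and adjusted p-values come from edgeR's quasi-likelihood F test over 14773 genes with a threshold of 0.05. Log2 fold changes carry their SE.

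After T cell transfer transcripts of the whole proteasome were higher, and Psmb9 and Psmb8 had the largest fold changes of the tested members. In Vehicle against Normal, 44 of the 50 tested members rose and 0 fell, where 23.1% of all tested genes rose and 23.3% fell. Psmb8 rose 8.92-fold and Psmb9 rose 9.54-fold. The 31 standard subunits of the core and cap all rose, by a median of 0.75 on the log2 scale, against a median of 0.00 over all genes tested. The 5 immune members had a median of 1.84.

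Psmb8 encodes the immune subunit that replaces Psmb5, with chymotrypsin-like activity. It had 496.1, 574.4, 646.9 and 551.5 CPM in the 4 Vehicle libraries, against 51.7, 57.0, 72.6 and 65.6 CPM in the 4 Normal libraries. The groups were far apart, and the log2 fold change was 3.16 ± 0.29 (adjusted p = 2.83e-08). Psmb9, which replaces Psmb6, had 294.8, 330.2, 332.7 and 255.9 CPM in Vehicle, against 26.0, 35.7, 28.2 and 33.9 CPM in Normal, a log2 fold change of 3.25 ± 0.29 (adjusted p = 2.79e-08). Both genes lie in the MHC region of chromosome 17 (GENCODE M21, mm10), Psmb9 at chr17:34181987-34187764 on the minus strand and Psmb8 at chr17:34197721-34201454 on the plus strand. Between them lies Tap1, a subunit of the peptide transporter that loads MHC class I. Tap1 overlaps Psmb9 by its first bases on the opposite strand and ends 495 bases before Psmb8, and whether counting used strand is not given in the sources used here. Tap1 itself rose by 3.35 ± 0.25 on the log2 scale.

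Psmb10, which replaces Psmb7 and lies on another chromosome (chr8:105935735-105938444, minus strand), changed less. It had 360.7, 409.3, 383.9 and 247.7 CPM in Vehicle, against 125.1, 129.4, 120.2 and 103.5 CPM in Normal. The lowest Vehicle library still exceeded every Normal library, and the log2 fold change was 1.52 ± 0.22 (adjusted p = 1.14e-05). Per kilobase of transcript, where genes can be compared, the Vehicle mean was 348 CPM for Psmb8, 267 for Psmb10 and 224 for Psmb9. In Normal colon the order differed, with Psmb10 at 91.2 CPM per kilobase, Psmb8 at 37.9 and Psmb9 at 22.9.

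**Figure D1:**
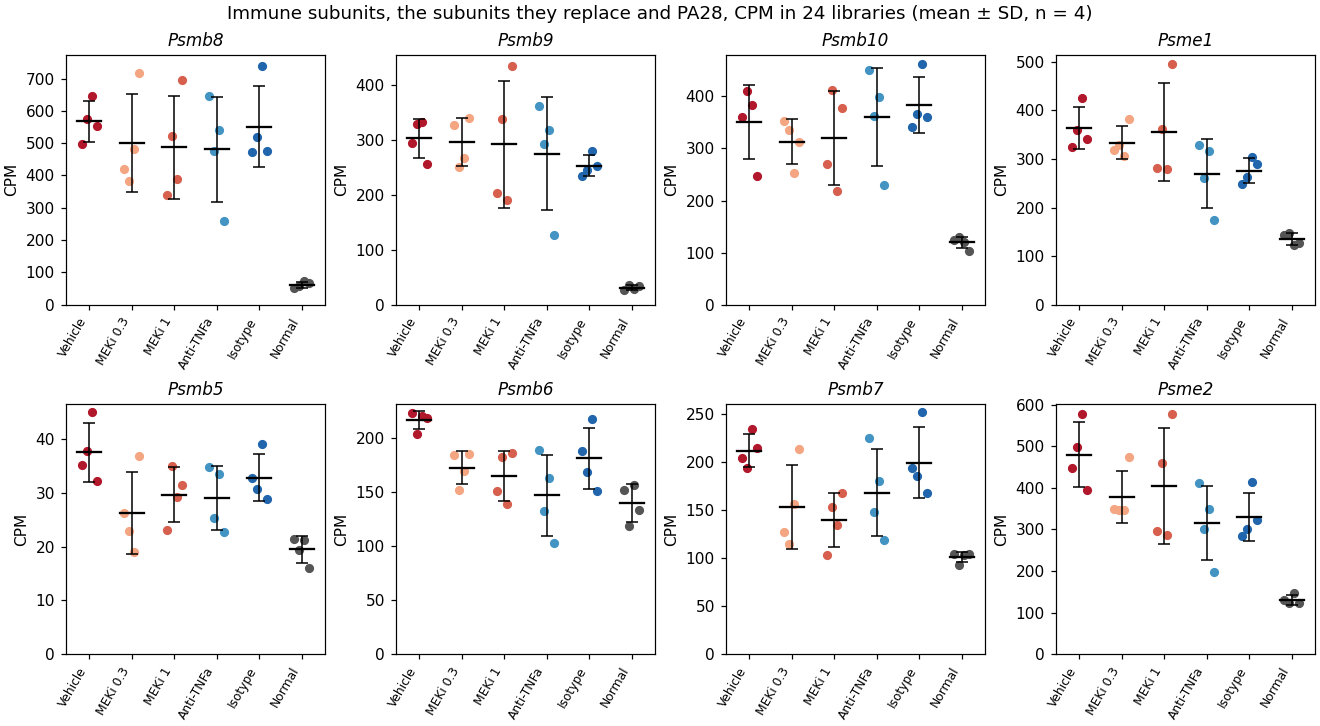
CPM of the 3 immune catalytic subunits, the 3 subunits they replace and both PA28 genes, with 1 point per library and bars for the mean ± SD (n = 4) in each of 6 groups. Every library of the 5 groups given T cells lies above every Normal library for Psmb8, Psmb9, Psmb10, Psme1 and Psme2. Psmb6 overlaps Normal in MEKi 0.3, MEKi 1, Anti-TNFa and Isotype, Psmb5 in MEKi 0.3 and Psmb7 in MEKi 1.

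The window before each gene's RefSeq start site (GRCm38.p6, the mm10 build) was searched on both strands for the gamma-activated site, TTCNNNGAA. Whether the site bears on the size of a change was not tested, and Psmb9, with the largest fold change of the tested members, holds no match. Psmb8 holds 1 match, whose first base lies 97 bases upstream of the start site; that start site lies inside the longer gene that GENCODE annotates. In 250 bases upstream, the motif was found in 2 of the 42 members with a window, Psmb8 and Psmg1, and in 8.13% of 27025 genes. The 30 bases around the match at chr17:34198088-34198117 (plus strand) are shown with the match in capitals, followed by the 198 bases upstream of the first annotated exon of Psmb10 at chr8:105938445-105938642 (minus strand), which holds no match to the gamma-activated site.
Psmb8: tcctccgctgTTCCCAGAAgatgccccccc
Psmb10: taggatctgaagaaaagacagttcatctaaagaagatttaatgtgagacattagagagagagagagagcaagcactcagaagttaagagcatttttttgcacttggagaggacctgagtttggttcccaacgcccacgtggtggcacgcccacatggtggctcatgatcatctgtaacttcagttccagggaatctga

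The subunits that the immune forms replace rose too, by less. Psmb5, the chymotrypsin-like subunit, had 35.2, 37.9, 45.1 and 32.2 CPM in Vehicle, against 21.4, 19.3, 21.3 and 16.04 CPM in Normal, a log2 fold change of 0.91 ± 0.20 (adjusted p = 7.24e-04). Psmb6, the caspase-like subunit, had 222.7, 204.1, 220.6 and 218.9 CPM in Vehicle, against 152.0, 118.2, 156.8 and 133.1 CPM in Normal. Its log2 fold change of 0.59 ± 0.16 was the smallest of the 3 (adjusted p = 0.00539). Psmb7, the trypsin-like subunit, had 203.7, 193.9, 234.7 and 214.9 CPM in Vehicle, against 104.4, 93.0, 103.4 and 104.1 CPM in Normal, a log2 fold change of 1.02 ± 0.20 (adjusted p = 3.48e-04). In none of the 3 did a Vehicle library overlap a Normal library.

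Standard proteasome genes are known targets of Nfe2l1, which binds the antioxidant response element, searched here as TGACNNNGC. The element was found upstream of 5 of the 42 members with a window (Psmb5, Psmb6, Psmc6, Psmd12 and Psmd9) and of 11.5% of 27025 genes. It is shown in capitals for Psmb5 at chr14:54618023-54618245 (minus strand), with its first base 47 bases upstream of the start site, and for Psmb6 at chr11:70525107-70525356 (plus strand), 9 bases upstream. Neither window holds the gamma-activated site.
Psmb5: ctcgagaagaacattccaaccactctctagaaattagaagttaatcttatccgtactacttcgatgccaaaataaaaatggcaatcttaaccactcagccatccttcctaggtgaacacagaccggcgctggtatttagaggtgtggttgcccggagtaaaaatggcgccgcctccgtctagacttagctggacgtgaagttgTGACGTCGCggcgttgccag
Psmb6: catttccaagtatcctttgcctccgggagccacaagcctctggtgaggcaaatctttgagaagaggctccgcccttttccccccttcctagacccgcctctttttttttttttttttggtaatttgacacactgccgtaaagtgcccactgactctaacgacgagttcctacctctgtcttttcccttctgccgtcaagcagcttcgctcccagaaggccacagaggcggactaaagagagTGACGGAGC
Of the other motifs, the interferon-stimulated element, searched as GAAA, any 2 bases and GAAA, was found in 3 members (Psmb3, Psmd4 and Psmd9) and 3.46% of genes, the CCAAT box in 15 members and 37.5% of genes, and the NF-kappaB letters, GGG, any 5 bases and CC, in 23 members and 48.7% of genes. The windows of Psmb9, Psme1 and Psme2 held the NF-kappaB letters, which are common, and neither interferon motif.

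Within each catalytic pair, the immune form had a larger mean share of the transcripts in colitis. Psmb8 made up 88.6%, 89.3%, 88.8% and 90.4% of Psmb8 plus Psmb5 per kilobase in Vehicle, against 57.1%, 62.0%, 65.3% and 69.3% in Normal. Psmb9 made up 43.9%, 48.8%, 47.1% and 40.8% of Psmb9 plus Psmb6 in Vehicle, against 9.16%, 15.1%, 9.59% and 13.1% in Normal. Psmb10 made up 61.0%, 65.1%, 59.1% and 50.5% of Psmb10 plus Psmb7 in Vehicle, against 51.5%, 55.2%, 50.7% and 46.8% in Normal, so this pair overlapped between the groups and the others did not. With the longest transcript as the length, the mean Psmb9 share was 31.9% in Vehicle and 7.04% in Normal. These shares are transcript ratios, described without a test, and do not measure assembled particles. The pseudogene Psmb5-ps is 95% identical to Psmb5, and Psmb7-ps2 is 91.7% identical to Psmb7. How reads shared with these pseudogenes were counted is not given in the sources used here, and the shares may depend on it. None of the treatments brought the Psmb8 or Psmb9 share near the Normal level. For Psmb10, where Vehicle already overlapped Normal, the lowest treated share was 56.3%, in MEKi 0.3, against up to 55.2% in Normal. The mean Psmb8 share was 91.2% ± 1.58 in MEKi 0.3, 89.7% ± 1.93 in MEKi 1, 89.6% ± 2.28 in Anti-TNFa and 90.1% ± 1.01 in Isotype (SD, n = 4 each). The mean Psmb9 share was 50.2% ± 1.72 in MEKi 0.3, 49.9% ± 6.54 in MEKi 1, 51.4% ± 6.30 in Anti-TNFa and 45.4% ± 3.26 in Isotype. The mean Psmb10 share was 64.6% ± 8.15 in MEKi 0.3, 66.5% ± 5.19 in MEKi 1, 65.4% ± 2.44 in Anti-TNFa and 63.0% ± 2.04 in Isotype.

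**Figure D2:**
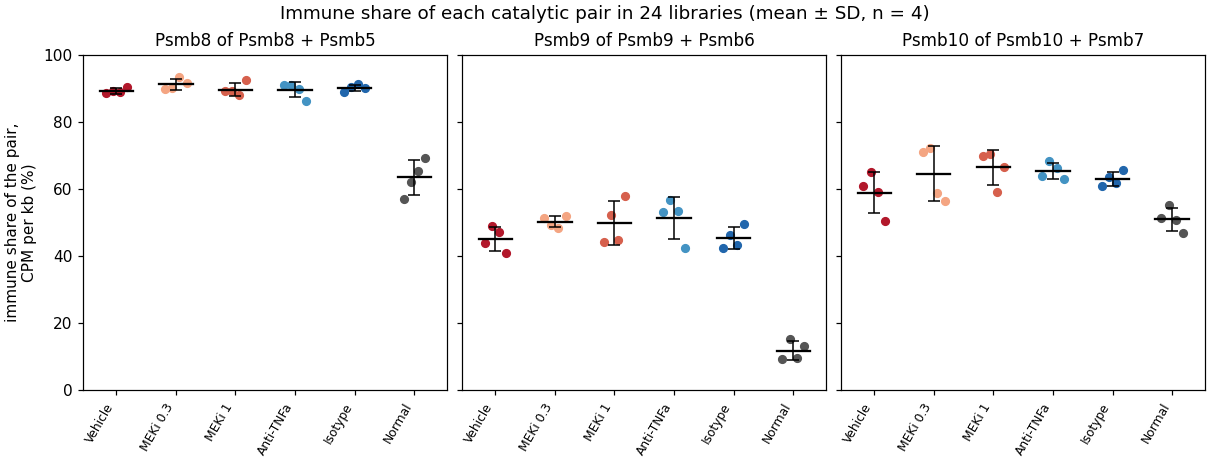
Share of the immune form in each catalytic pair, in percent of summed CPM per kilobase, with 1 point per library and bars for the mean ± SD (n = 4). Psmb8 stays between 86.3% and 93.3% in the 20 libraries given T cells and between 57.1% and 69.3% in Normal; the Psmb10 share overlaps between Vehicle and Normal.

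Both PA28 genes rose. Psme1 (chr14:55578123-55581529, plus strand) had 325.7, 359.6, 424.6 and 342.1 CPM in Vehicle, against 143.5, 147.7, 123.0 and 127.5 CPM in Normal, a log2 fold change of 1.38 ± 0.20 (adjusted p = 1.14e-05). Psme2 (chr14:55587441-55591113, minus strand), 5911 bases away, had 448.8, 497.7, 577.9 and 396.0 CPM in Vehicle, against 129.0, 122.8, 146.9 and 122.6 CPM in Normal, a log2 fold change of 1.84 ± 0.24 (adjusted p = 2.66e-06). Psme2b, an intronless copy of Psme2 on chromosome 11, had 96.4, 114.2, 127.2 and 118.8 CPM in Vehicle, against 43.1, 24.9, 45.0 and 44.2 CPM in Normal. It rose by 1.49 ± 0.23, but it is 99.4% identical to Psme2 over 794 aligned bases, so its counts may hold Psme2 reads and the reverse.

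Every ring and layer of the standard proteasome rose in Vehicle against Normal, and for all 31 standard subunits the Vehicle libraries lay above the Normal libraries, a separation that 23.3% of all tested genes showed. The 7 alpha subunits rose by a median of 0.81 on the log2 scale, the 4 non-catalytic beta subunits by 0.76, the 6 ATPases of the cap by 0.79 and the 11 other cap subunits by 0.72. Psma5 rose most, by 1.33 ± 0.21 (adjusted p = 3.96e-05), with 115.0, 125.8, 146.2 and 120.7 CPM in Vehicle, against 50.2, 43.2, 51.1 and 51.6 CPM in Normal. Psma7, also of the alpha ring, rose by 1.13 ± 0.23, and Psmd14, the deubiquitinase of the cap, by 1.11 ± 0.27. At the low end, Psmb1 rose by 0.47 ± 0.18 and Psmd8 by 0.41 ± 0.13. Over 19 settings, the main fit included and the series table's names left out, between 28 and 31 of the 31 passed. With a length offset Psmb1 (0.30, adjusted p = 0.140) and Psmd8 (0.21, adjusted p = 0.124) did not. By the series table's names 0 of the 31 passed.

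The accessory members were mixed. The activators Psme3 and Psme4 and the inhibitor Psmf1 all rose, by a median of 0.63. Of the 7 assembly chaperones 4 rose, among them Psmd9 (0.43 ± 0.16) and Psmd5 (0.36 ± 0.13), chaperones of the base of the cap. Over the same 19 settings the adjusted p ranged up to 0.105 for Psmd9 and 0.116 for Psmd5. The other chaperones did not pass the test: Psmg3 changed by 0.59 ± 0.26 (adjusted p = 0.0662), Psmg2 by 0.22 ± 0.17 (adjusted p = 0.298) and Psmd10 by -0.05 ± 0.20 (adjusted p = 0.851). Psmc3ip, a meiotic recombination factor that shares only the symbol's start, changed by 0.85 ± 0.41 (adjusted p = 0.0906). The pseudogenes Psmb6-ps2 (0.56 ± 0.29) and Psmb6-ps (0.04 ± 0.49) did not pass. They are 93.9% and 89.6% identical to Psmb6, so reads may be split between these loci.

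**Figure D3:**
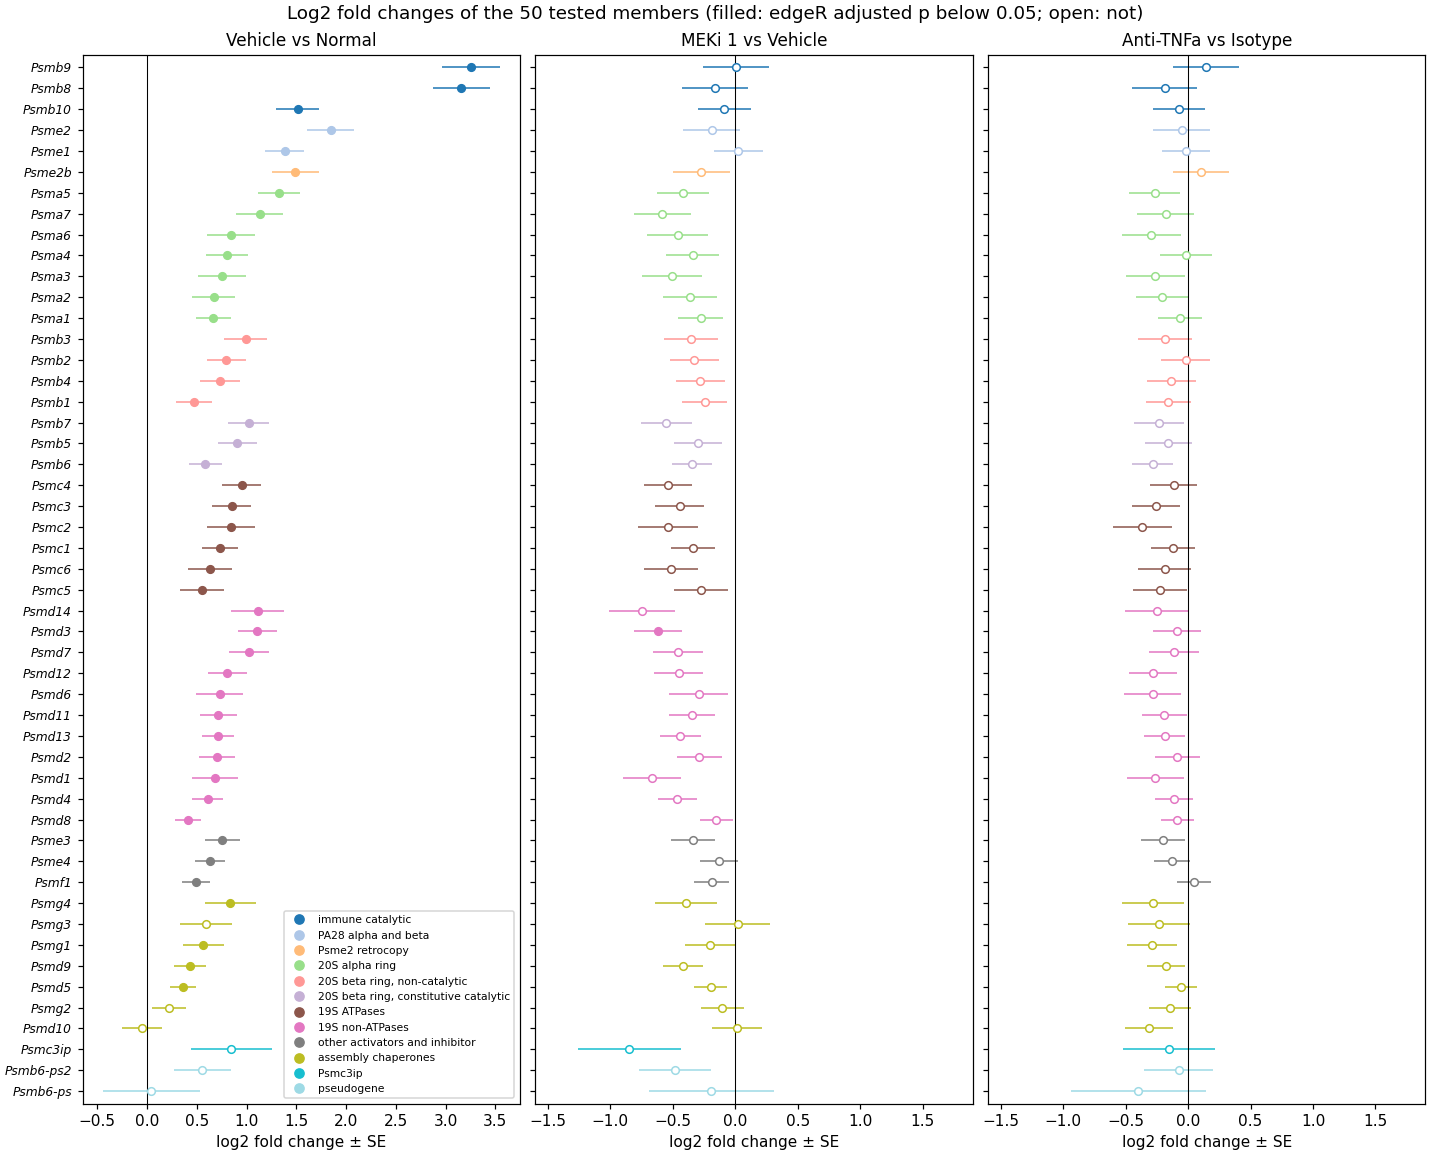
Log2 fold change ± SE of the 50 tested members in 3 comparisons, grouped by role, with filled points for an edgeR adjusted p below 0.05. Vehicle against Normal shows 44 filled points, all above 0; MEKi 1 against Vehicle shows Psmd3 alone filled, with the 31 standard subunits below 0 and the 5 immune members near 0; Anti-TNFa against Isotype shows no filled point.

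Isotype libraries, the other control arm with colitis, were set against the same Normal libraries. Of the members, 34 rose and 1 fell, the pseudogene Psmb6-ps, where 20.9% of all tested genes rose and 20.3% fell. Psmb8 rose by 3.13 ± 0.29, Psmb9 by 2.99 ± 0.29, Psmb10 by 1.65 ± 0.22, Psme2 by 1.31 ± 0.23 and Psme1 by 0.99 ± 0.20. Of the 31 standard subunits 26 rose, and the median log2 fold change of the 31 was 0.71. Of the replaced catalytic subunits, Psmb7 rose by 0.94 ± 0.20 and Psmb5 by 0.71 ± 0.19, while Psmb6 did not pass (0.33 ± 0.16, adjusted p = 0.103). The highest of the others were Psma5 (1.06 ± 0.21), the lid subunit Psmd3 (1.03 ± 0.19) and the large scaffold subunits Psmd2 (0.97 ± 0.18) and Psmd1 (0.96 ± 0.23). The lowest that passed were Psmc1 (0.52 ± 0.18), Psmb1 (0.46 ± 0.18), Psmd9 (0.42 ± 0.16) and Psmb6-ps (-1.26 ± 0.51). Over the settings, the series table's names left out, their adjusted p ranged up to 0.0639, 0.218, 0.124 and 0.151. Psmb6-ps had 5 to 14 counts per Isotype library, and its fall was not called with the replicate number as a block. Only 1 of the 7 assembly chaperones rose.

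The 2 control arms were also compared directly. In Isotype against Vehicle 0 members rose and 1 fell, where 1.32% of tested genes rose and 1.67% fell. The member that fell was Psme2b, with 54.0, 65.9, 55.9 and 61.7 CPM in Isotype, against 96.4, 114.2, 127.2 and 118.8 CPM in Vehicle (-0.95 ± 0.23, adjusted p = 0.0239). This call was lost when Vehicle replicate 2, 3 or 4 or Isotype replicate 1, 2 or 4 was left out. With a length offset the log2 fold change was -0.63, and over the 19 settings the adjusted p ranged up to 0.199. The near-identical Psme2 and the deeper Isotype libraries stand beside it, and their part was not tested.

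The MEK inhibitor question is whether treatment moved these genes back towards the untreated colon. At 1 mg/kg the standard subunits were lower than in Vehicle in their fold changes and the immune members lay near 0, a difference between the lists that was not tested. All 31 standard subunits had a log2 fold change below 0 in MEKi 1 against Vehicle, with a median of -0.42, where 49.6% of all tested genes were below 0. All 31 stayed below 0 with RLE factors, library size only, DESeq2 or a length offset and without any 1 library, but 0 of the 31 were below 0 by the series table's column names. The 5 immune members ranged between -0.19 and 0.02, with a median of -0.09. Among the 50 members 0 rose and 1 fell, where 6.08% of tested genes rose and 4.51% fell, so the count of calls was below the background. At an unadjusted p below 0.05 there were 16 members, where 30.4% of tested genes passed. DESeq2 called 5 members, and its share over all tested genes is not given here. In 20 members, 18 of them standard subunits, all 4 MEKi 1 libraries lay below all 4 Vehicle libraries, a separation shown by 10.3% of tested genes.

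The member that fell was Psmd3 (chr11:98682554-98695979, plus strand), a subunit of the lid of the cap. It had 152.6, 227.4, 149.5 and 169.4 CPM in MEKi 1, against 260.2, 297.8, 298.1 and 247.3 CPM in Vehicle. The groups did not overlap, and the log2 fold change was -0.62 ± 0.19 (adjusted p = 0.0425). This adjusted p ranged up to 0.137 over 19 settings, the main fit included and the series table's names left out. By those names the log2 fold change was 0.31. The calls went to 0 without any 1 of the 4 Vehicle libraries or without MEKi 1 replicate 1 or 3. Without MEKi 1 replicate 4 they went to 7, Psmd3 not among them, and without replicate 2 to 2. The shares of all tested genes called in these fits are not given here. Psmb7 came next among the catalytic subunits, with 102.9, 153.0, 133.9 and 167.8 CPM in MEKi 1, against 203.7, 193.9, 234.7 and 214.9 CPM in Vehicle, and did not pass (-0.55 ± 0.20, adjusted p = 0.0729). Psmb6 had 150.8, 182.3, 139.0 and 186.1 CPM in MEKi 1, against 204.1 to 222.7 CPM in Vehicle (-0.35 ± 0.16, adjusted p = 0.154). Psmb5 had 23.0, 35.1, 29.3 and 31.5 CPM in MEKi 1 and overlapped Vehicle (-0.30 ± 0.19, adjusted p = 0.301).

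The immune members spread widely among the MEKi 1 libraries. Psmb8 had 341.0, 522.4, 387.8 and 696.9 CPM, which reaches both below and above the 496.1 to 646.9 CPM of Vehicle. Its log2 fold change was -0.16 with a 95% interval of -0.68 to 0.35, and that of Psmb9 was 0.00 with an interval of -0.51 to 0.52. Psmb9 had 203.2, 339.4, 191.6 and 435.2 CPM in MEKi 1, against 255.9 to 332.7 CPM in Vehicle. For Psmb10 (269.8, 411.3, 219.2 and 377.9 CPM in MEKi 1) the interval was -0.50 to 0.33. For Psme1 (281.7, 362.7, 280.1 and 495.6 CPM) it was -0.36 to 0.40, and for Psme2 (297.0, 459.1, 286.0 and 578.1 CPM) it was -0.64 to 0.26. In all 5 genes replicates 2 and 4 were high and replicates 1 and 3 low, and the intervals leave room for a change in either direction.

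Markers of blood cells were lower as well. All 7 leukocyte genes fell in MEKi 1 against Vehicle, by a median of 1.24 on the log2 scale, as did 5 of 7 T cell genes and 5 of 6 myeloid genes. The leukocyte genes summed to 202 to 531 CPM in MEKi 1, against 562 to 991 CPM in Vehicle and 111 to 131 CPM in Normal. MEKi 1 replicate 4 had the lowest leukocyte sum of the 20 libraries given T cells, 202 CPM, and the highest sum of Psmb8, Psmb9 and Psmb10 of all 24 libraries, 1510 CPM. The 31 standard subunits summed to 5030 CPM in that library, against 3278 to 4579 CPM in the other MEKi 1 libraries. The 9 epithelium genes summed to 16504 to 18955 CPM in MEKi 1, against 12296 to 17119 CPM in Vehicle. The smooth muscle genes summed to 3716 and 3343 CPM in MEKi 1 replicates 1 and 3, where the immune members were low, and to 2235 and 2028 CPM in replicates 2 and 4. The part of leukocyte, epithelial and muscle RNA in these levels was not tested.

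**Figure D4:**
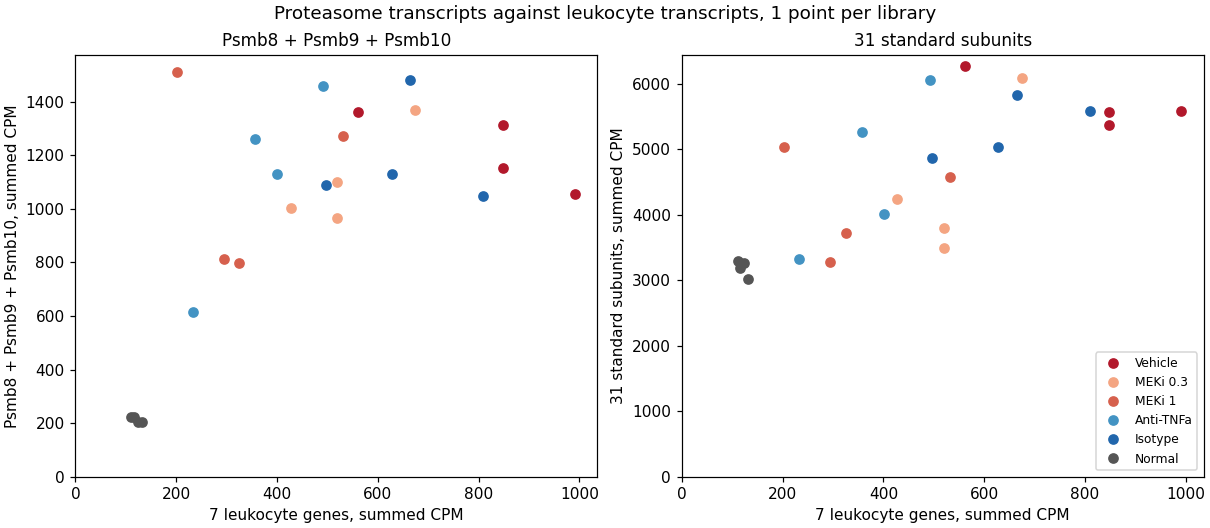
Summed CPM of Psmb8, Psmb9 and Psmb10 and of the 31 standard subunits against the summed CPM of 7 leukocyte genes, 1 point per library. MEKi 1 replicate 4 stands at 202 CPM of leukocyte transcripts with 1510 CPM of immune subunits, while the Normal libraries lie at 203 to 222 CPM of immune subunits.

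At 0.3 mg/kg no member passed the test against Vehicle. With edgeR 0 of 50 were called, where 0.00677% of tested genes were called, and with DESeq2 also 0; 12 members had an unadjusted p below 0.05, where 17.9% of tested genes did. All 31 standard subunits again had a log2 fold change below 0, with a median of -0.35 where 49.5% of all tested genes were below 0 (4 of the 31 were by the series table's column names), and the 5 immune members ranged between -0.33 and -0.02. The MEKi 0.3 and MEKi 1 comparisons share their Vehicle libraries, so their signs are not independent. The smallest p belonged to members already described, Psmb5 and, of the others, Psma7 (-0.56 ± 0.23, adjusted p = 0.223) and the cap ATPase Psmc4 (-0.47 ± 0.19, adjusted p = 0.224). Psmb8 had 419.4, 381.7, 481.5 and 718.6 CPM in MEKi 0.3, and Psmb5 had 26.4, 22.8, 19.05 and 36.9 CPM. Replicate 4 was the highest of its group in both, and its standard subunits summed to 6092 CPM, against 3487 to 4242 CPM in the other MEKi 0.3 libraries. Without it, 10 members were called, all lower than in Vehicle. The share of all tested genes called in that fit is not given here. The means of Psmd3 were 276 ± 26.1 CPM in Vehicle, 202 ± 60.6 CPM in MEKi 0.3 and 175 ± 36.2 CPM in MEKi 1 (SD, n = 4 each), and the MEKi 0.3 and MEKi 1 libraries overlapped.

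**Figure D5:**
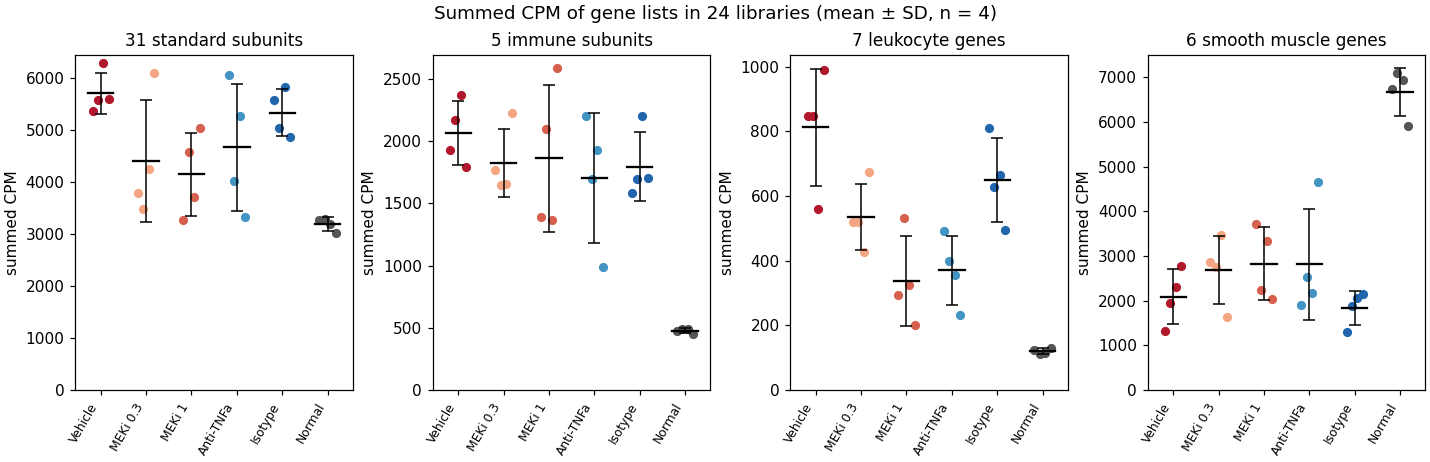
Summed CPM of the 31 standard subunits, the 5 immune members, 7 leukocyte genes and 6 smooth muscle genes, with 1 point per library and bars for the mean ± SD (n = 4). The standard subunits average 5703 CPM in Vehicle and 3192 CPM in Normal, and single libraries of MEKi 0.3 and Anti-TNFa reach 6092 and 6060 CPM.

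The antibody against TNFa gave no call among the members against Isotype. With edgeR 0 of 50 passed, where 0.0203% of tested genes did; 0 members had an unadjusted p below 0.05, where 11.2% of tested genes did, and DESeq2 called 0. The 31 standard subunits had log2 fold changes of -0.37 to -0.02 with a median of -0.19; 23 of the 31 were below 0 without Anti-TNFa replicate 4, 28 without Isotype replicate 3 or Anti-TNFa replicate 2, and 20 by the series table's names. The immune members ranged from -0.19 to 0.14 with a median of -0.05, and all 5 were above 0 without Anti-TNFa replicate 4 or Isotype replicate 3. Of all tested genes 50.4% were below 0. Psmb8 had 646.1, 474.7, 542.0 and 259.1 CPM in Anti-TNFa, against 472.1, 517.5, 738.7 and 477.1 CPM in Isotype. Psmb9 had 362.8, 293.8, 318.0 and 127.9 CPM in Anti-TNFa, against 234.9, 245.4, 279.8 and 252.2 CPM in Isotype. Psmb10 had 449.7, 362.9, 399.6 and 229.1 CPM in Anti-TNFa, against 342.0, 366.8, 461.6 and 360.4 CPM in Isotype. In all 3 genes Anti-TNFa replicate 4 was the lowest library, and it also had the lowest leukocyte sum of its group, 233 CPM, and the highest sum of 6 smooth muscle genes, 4648 CPM against 1897 to 2536 CPM in the other Anti-TNFa libraries. The part of these cells' RNA in the low values was not tested.

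Anti-TNFa replicate 4 was also the lowest of its group for both PA28 genes and the replaced subunits. For the replaced subunits replicate 2 came next. Psmb5 had 34.8, 25.4, 33.6 and 22.7 CPM in Anti-TNFa, and Psmb6 had 189.1, 132.5, 162.8 and 103.1 CPM. Psme1 had 328.9, 261.6, 315.5 and 173.3 CPM in Anti-TNFa, against 248.1, 262.3, 304.1 and 290.4 CPM in Isotype, and Psme2 had 412.1, 301.6, 349.6 and 198.5 CPM in Anti-TNFa, against 283.0, 301.4, 413.6 and 321.8 CPM in Isotype. Psmb7 had 225.0, 147.9, 180.2 and 118.7 CPM in Anti-TNFa, against 193.2, 184.9, 252.0 and 167.2 CPM in Isotype. The 2 smallest p among the other members were those of the chaperone Psmd10 (-0.31 ± 0.19, adjusted p = 0.568) and the ATPase Psmc2 (-0.37 ± 0.24, adjusted p = 0.581). Psmd10 was the 1 member of 50 whose Anti-TNFa libraries all lay below the Isotype libraries, a separation that 3.61% of tested genes showed. All 7 leukocyte genes had an unadjusted p below 0.05 here and none passed the adjusted threshold.

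The effects of the inhibitor and the antibody, each against its own control arm, were compared within the same fit. The difference passed for 0 of 50 members, where 0.0135% of tested genes passed, and 0 had an unadjusted p below 0.05, where 4.93% of tested genes did; DESeq2 called 0. Psmd3 came nearest, with a difference of -0.53 ± 0.27 (adjusted p = 0.934), followed by the ubiquitin receptor Psmd4 (-0.35 ± 0.22, adjusted p = 0.934). The 95% interval for Psmd3 was -1.06 to 0.00, so a difference was not shown.

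Set against Normal, the treated colons kept the immune subunits high, and these comparisons share the Normal libraries. In MEKi 1, 9 members rose and 0 fell, where 8.06% of tested genes rose and 4.79% fell: the 5 immune members, Psme2b, Psma5, Psmb5 and Psme4. Psmb8 rose by 3.00 ± 0.28, Psmb9 by 3.26 ± 0.29, Psmb10 by 1.43 ± 0.22, Psme1 by 1.41 ± 0.20 and Psme2 by 1.65 ± 0.23. Psma5 rose by 0.91 ± 0.21, and Psme4, an activator that binds the core in the nucleus, by 0.51 ± 0.15. Over the 19 settings the adjusted p of Psme4 ranged up to 0.0998, so its call did not hold throughout. Only 2 of the 31 standard subunits passed, with a median log2 fold change of 0.39. In MEKi 0.3, 12 members rose and 0 fell, where 10.8% of tested genes rose and 9.06% fell. They were the 5 immune members (Psmb8 by 2.99 ± 0.28 and Psmb9 by 3.24 ± 0.29 the highest), Psme2b (1.41 ± 0.23), Psme4 (0.61 ± 0.15) and 5 standard subunits, Psma5 (0.95 ± 0.21), Psmd3 (0.67 ± 0.19), Psmd7 (0.58 ± 0.20), Psmd2 (0.51 ± 0.18) and Psmb7. Without MEKi 0.3 replicate 4 the calls of Psmd3 (0.46, adjusted p = 0.108), Psmd7 (0.29, adjusted p = 0.310), Psmd2 (0.27, adjusted p = 0.310) and Psmb7 were lost. Psma5 kept its call over the 19 settings, while the adjusted p of Psme4 in MEKi 0.3 ranged up to 0.0605.

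In Anti-TNFa, 21 members rose and 1 fell against Normal, where 12.5% of tested genes rose and 9.89% fell. All 5 immune members rose, with Psmb9 at 3.13 ± 0.29, Psmb8 at 2.94 ± 0.28, Psmb10 at 1.57 ± 0.22, Psme2 at 1.25 ± 0.23 and Psme1 at 0.97 ± 0.20. Of the standard subunits 13 of 31 rose, led by Psmd3 (0.94 ± 0.19), Psmd2 (0.89 ± 0.18) and Psmc4 (0.80 ± 0.19), and Psme4 rose by 0.82 ± 0.15. The count moved to 33 without Anti-TNFa replicate 4, to 10 without replicate 1, to 13 without replicate 3 and to 14 without Normal replicate 3 or 4. Shares of all tested genes in those fits are not given here. Psmb6-ps was the member that fell, with 0.860, 0.949, 1.29 and 0.133 CPM in Anti-TNFa, against 1.95, 1.97, 2.80 and 3.50 CPM in Normal, which is 1 to 11 counts per Anti-TNFa library and 6 to 17 per Normal library.

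Proteins that work with the proteasome under other names rose only in part. Of 11 such genes 6 rose and 2 fell in Vehicle against Normal, where 23.1% of all tested genes rose and 23.3% fell. Pomp, the maturation factor of the core, rose by 1.32 ± 0.25, and Adrm1, a ubiquitin receptor of the cap, by 1.04 ± 0.20. Uchl5 (0.98 ± 0.28) and Usp14 (0.54 ± 0.19), deubiquitinases that bind the cap, rose as well. Ube3c, a ubiquitin ligase found on the proteasome, fell by 0.48 ± 0.12. In MEKi 1 against Vehicle none of the 11 passed, and Adrm1 came nearest (-0.60 ± 0.20, adjusted p = 0.0502).

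Among genes that control proteasome transcription, 0 of 5 rose, 3 fell and 2 did not pass in Vehicle against Normal, where 23.3% of all tested genes fell. Ddi2, the protease that activates Nfe2l1, fell by 0.42 ± 0.11, Nfe2l2, the related factor of the oxidative stress response, by 0.50 ± 0.14, and Ngly1, which removes sugars from Nfe2l1, by 0.49 ± 0.16. Nfe2l1 itself did not pass (-0.21 ± 0.10, adjusted p = 0.0968). In MEKi 1 against Vehicle Ddi2 rose by 0.53 ± 0.11 (adjusted p = 0.0112) and the other regulators did not pass. These are transcript levels, and Nfe2l1 and Nfe2l2 are regulated largely at the protein level.

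In Vehicle against Normal, where 23.1% of all tested genes rose and 23.3% fell, 7 of 12 genes of interferon-gamma signalling rose, 2 fell and 3 did not pass. Nlrc5, the activator of MHC class I genes, rose by 4.44 ± 0.36 and Irf1 by 1.60 ± 0.17, and Irf2 fell by 0.67 ± 0.17. Ifng averaged 3.40 CPM in Vehicle and was at 0 in Normal. Of 11 class I loading genes 10 rose, with H2-K1 at 2.16 ± 0.15 and B2m at 2.04 ± 0.16. In MEKi 1 against Vehicle none of either list passed. Ifng averaged 1.32 ± 1.41 CPM in MEKi 1 and 3.40 ± 1.97 CPM in Vehicle (SD, n = 4 each), a log2 fold change of -1.25 ± 0.77 (edgeR adjusted p = 0.280). Tap1 averaged 330 CPM in MEKi 1 and 348 CPM in Vehicle, Nlrc5 averaged 60.2 CPM in MEKi 1 and 57.4 CPM in Vehicle, and B2m changed by -0.20 ± 0.16. All 7 leukocyte, 7 T cell and 6 myeloid genes rose in Vehicle against Normal, while all 6 smooth muscle genes fell, and of 9 epithelial genes 2 rose and 3 fell. Which cells carried the proteasome transcripts was not tested.

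The 4 members left out of the tests were nearly silent. Psmb11, the thymus-specific catalytic subunit that lies 3410 bases from Psmb5, had 3 counts in all 24 libraries together. Psma8, an alpha subunit of the testis, had 11, the pseudogene Psmb5-ps had 3 and Psmb7-ps2 had 45. The levels of the standard subunits per kilobase differed as well: in Vehicle the alpha ring ran between 33.9 CPM per kilobase for Psma3 and 415 for Psma7, and the cap ATPases between 38.9 for Psmc6 and 155 for Psmc3. Psmb5 was at 41.8 CPM per kilobase in Vehicle and 21.7 in Normal, the lowest of the standard beta subunits in both groups.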

How the data were processed

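Colon RNA of 24 libraries in 6 groups was measured by RNA-seq. Per the labels' protocols, poly(A) RNA was cut with RNase III and sequenced on Ion Torrent. The authors deposited raw counts per gene symbol, and the submitters' processing notes name mm10 as the build. Aligner, counting tool, strand setting and annotation: not given in the sources used here. Each sample's own count file was used, and 0 per-sample columns were left without a sample. Total counts limit the precision of low genes, and intervals cover the spread between libraries.

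Genes were filtered by group with filterByExpr, scaled with TMM and compared in 1 robust quasi-likelihood fit of all 24 libraries, with group as the only term (edgeR 4.0.16, R 4.3.3), with Benjamini-Hochberg adjustment over the 14773 genes tested. CPM are counts scaled to a library total of 1000000. Lengths and positions came from GENCODE M21, which held 40421 of the 43280 symbols and all 54 members, and start-site sequence from RefSeq. Members and gene lists were chosen with earlier results of these data known. All libraries' values are given for the 5 immune members and Psmb5, Psmb6 and Psmb7; of the other members, up to 4 with the highest and up to 4 with the lowest fold change past the threshold are named, or the 2 with the smallest p where none passed. Of other lists, up to 3 genes with the smallest p are named by the rule, and other genes named were chosen after their values were seen.

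Replicate numbers carry no stated meaning in the labels. Correlation of same-numbered libraries' deviations from their group means exceeded 0.1 in all 4 pairs for MEKi 0.3 and Vehicle (0.126, 0.125, 0.167 and 0.184) and in no other comparison. Alternatives were RLE factors, library size only, DESeq2 1.42.0, all genes without a filter, a floor of 5 CPM on the mean, a length offset (lowess span 0.3), the replicate block, the compared groups alone, the series table's column names, removal of libraries with over 1000 CPM of pancreas transcripts, and each library left out in turn. The fit was tested on simulated counts. A gene of the interferon-gamma list is not reported here by name.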

Additional observations from a re-analysis of the deposited data

Results flagged for a closer look

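In 5 of 78 groups of 4 libraries looked at, 1 library lay farther from the others than Dixon's 95% critical value allows, where chance gives about 1 in 20. Psmb8 reached 738.7 CPM in Isotype replicate 3, the highest of its group. MEKi 0.3 replicate 4 was the highest of its group for Psme2, at 473.2 CPM, and for Psmd3, at 292.7 CPM. Normal replicate 2 was the lowest of its group for Psmb7, at 93.0 CPM, and for Psme2b, at 24.9 CPM.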

How the results depend on the processing

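The members called in Vehicle against Normal stayed at 38 to 44 with 1 library left out, in Isotype against Normal at 26 to 36. With 1 library left out the counts were 0 to 1 in Isotype against Vehicle, 0 to 10 in MEKi 0.3 against Vehicle, 0 to 7 in MEKi 1 against Vehicle, 0 to 0 in Anti-TNFa against Isotype and in the difference of effects, and, against Normal, 8 to 14 in MEKi 0.3, 7 to 13 in MEKi 1 and 10 to 33 in Anti-TNFa. DESeq2 called 44 and 36 in Vehicle and Isotype against Normal.

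The call in Isotype against Vehicle went to 0 with no filter, with the length offset, with the series table's names and without the pancreas-rich libraries, and to 2 with the compared groups alone. In MEKi 1 against Vehicle it was 4 with library size only, 5 with DESeq2, 3 with a mean of at least 5 CPM, 7 with the compared groups alone, and 0 with no filter or without the pancreas-rich libraries. The cause was not tested. Shares of all tested genes called under the alternatives are not given here, so the member counts in this section stand without that background.

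With the replicate block the counts were 43 and 33 for Vehicle and Isotype against Normal, 1 for Isotype against Vehicle, 0 for MEKi 0.3 and for MEKi 1 against Vehicle, 0 for Anti-TNFa against Isotype and for the difference of effects, and 9, 8 and 20 for MEKi 0.3, MEKi 1 and Anti-TNFa against Normal. With the block and the compared groups alone, MEKi 1 against Vehicle had 6 and MEKi 0.3 against Normal had 7. For MEKi 0.3 and Vehicle, where all 4 correlations exceeded 0.1, the block changed no call. For Anti-TNFa and Isotype the correlations were 0.216, 0.0862, 0.142 and 0.342, and the block changed no call there either. Whether a shared number pairs libraries is not known for any comparison.

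By the series table's names 0 members were called in Vehicle against Normal, MEKi 1 against Vehicle and both MEK inhibitor groups against Normal, and 1 each in Isotype and Anti-TNFa against Normal. Log2 fold changes that turned under these names were, in Vehicle against Normal, Psmb10 (-0.27), Psme1 (-0.0145), Psmb1 (-0.0316) and Psmd9 (-0.14); in MEKi 0.3 against Vehicle, Psma7 (0.20) and Psmc4 (0.44); in MEKi 1 against Vehicle, Psmb8 (0.82), Psmb10 (0.68), Psme2 (0.80), Psmb5 (0.60), Psmb6 (0.27), Psmb7 (0.40) and Psmd3 (0.31); in Anti-TNFa against Isotype, Psmd10 (0.0858) and Psmc2 (0.0434); and in the difference of effects, Psmd3 (0.48) and Psmd4 (0.25).

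In MEKi 1 against Vehicle the values nearest 0 also changed sign. Psmb9 was at -0.00444 with RLE factors, -0.0555 with library size only, -0.00393 with DESeq2, -0.00396 with no filter, -0.0149 with a mean of at least 5 CPM, -0.00559 with the replicate block, -0.0812 without the pancreas-rich libraries, -0.0862 with the block and the compared groups alone, and -0.31 to 0.16 with 1 library left out. Psmb10 was at 0.0172 with the length offset and -0.23 to 0.0528 with 1 library left out. Psme1 was at -0.0337 with library size only, -0.0176 without the pancreas-rich libraries, -0.0169 with the block and the compared groups alone, and -0.23 to 0.12 with 1 library left out.

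The shares of the immune form moved with the length used. Without division by length the Psmb8 share was 94.9% in MEKi 0.3, 94.0% in MEKi 1, 94.0% in Anti-TNFa, 94.3% in Isotype, 93.8% in Vehicle and 75.8% in Normal, and the Psmb9 share was 63.1%, 62.6%, 64.0%, 58.4%, 58.2% and 18.3% in these groups; the Psmb10 share was 68.1% in Anti-TNFa and 65.8% in Isotype. With the longest transcript, the Psmb8 share was 88.6% in Isotype and 87.7% in Vehicle, the Psmb9 share 36.4% in MEKi 0.3, 36.3% in MEKi 1, 37.7% in Anti-TNFa, 32.1% in Isotype, 31.9% in Vehicle and 7.04% in Normal, and the Psmb10 share 81.5%, 82.9%, 82.3%, 80.7%, 77.7% and 71.9% in these groups.

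Over the genes named, 1312 recomputed fold changes kept their direction and side of the threshold, 178 kept the direction and no longer passed, 6 now passed and 38 changed sign.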
